A study of Mus musculus with 6 samples.

Results

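The genes described here are 35 genes of the melanosome, the organelle in which melanin is made, and of the melanocyte lineage. They were chosen by name as rows of the gene count table, 35 of its 34665 rows. All 35 had enough counts to be tested, among 16924 genes tested in all. By role they fall into 10 genes for pigment enzymes, melanosome transporters and the melanosome matrix, 9 for lineage transcription factors and receptors, and 16 for building and moving the organelle.

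RNA was measured by sequencing of whole tumours of B16, a mouse melanoma cell line, with the genotype given as WT in both groups. The ICI group holds 3 libraries (replicates 1, 2 and 3) from tumours treated with an immune checkpoint inhibitor. The RT_ICI group holds 3 libraries (replicates 1, 2 and 4) from tumours treated with radiation as well as the inhibitor, so the inhibitor is common to both groups and no untreated tumour was analysed here. The sources used here do not give the target and dose of the inhibitor, the dose and field of the radiation, the time of harvest, or the age and strain of the mice. The labels do not say that each library came from a different mouse, so a p-value here reflects how far these libraries scatter, which may be technical.

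Melanin is made in steps inside the melanosome: tyrosinase oxidises tyrosine, related enzymes process the products, and the pigment settles on fibrils of the protein PMEL. The transcription factor MITF, acting with SOX10 and PAX3, drives many of these genes in melanocytes and in melanoma, and signals through receptors such as KIT and MC1R raise or lower its activity. Melanosomes are related to lysosomes, are built by sorting complexes named BLOC and AP-3, and are carried on actin by RAB27A, melanophilin and myosin Va.

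MITF binds E-box elements, and the letters TCATGTG form the core of the M-box found in pigment gene promoters. The windows below are shown because they carry these letters, in capitals, within the 250 bases before a RefSeq start site (GRCm38.p6, read on the gene's own strand). For Slc24a5 the capitals are the reverse complement, CACATGA. Dct held a further match, CACATGA in chr14:118052462-118052488, which is not printed.
Tyr, chr7:87493518-87493544, minus strand: aaaaagttagTCATGTGctttgcagaa
Tyrp1, chr4:80834156-80834182, plus strand: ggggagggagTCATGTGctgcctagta
Dct, chr14:118052381-118052407, minus strand: gcacttagggTCATGTGctaacaaaga
Trpm1, chr7:64153683-64153709, plus strand: caaatcctcaTCATGTGcccaccccaa
Mc1r, chr8:123407020-123407046, plus strand: cacatgcccaTCATGTGgccaccctca
Slc24a5, chr2:125068104-125068126, plus strand: ggagactgctCACATGAttcagc
Hps1, chr19:42779979-42780003, minus strand: caggccccggTCATGTGgctgagtc

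The RefSeq promoter table held 28 of the 35 genes; Pmel, Mlana, Sox10, Pax3, Slc45a2, Gpr143 and Rab38 were not among them. TCATGTG on either strand stood in 7 of the 28 (25%), the 7 printed above, against 3.72% of 27025 genes. The shorter E-box CATGTG, which TCATGTG contains, stood in 8 of the 28 (28.6%), against 13.8% of all genes. The related letters TCACGTG stood in 4 of the 28 (14.3%), namely Atp7a, Hps3, Hps5 and Mlph, against 3.58% of all genes. Their shorter form CACGTG stood in 7 of the 28 (25%), against 6.86% of all genes. These are matches of letters and not shown to be bound sites.

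The library totals ranged from 22543721 to 45624013 counts. Levels are given in CPM, the count relative to the library's total after TMM scaling, and different genes are compared only per kilobase of the longest transcript. Mitochondrially encoded genes took 4.39% to 5.01% of counts in the ICI libraries and 11.5% to 14.7% in the RT_ICI libraries. RT_ICI replicate 1 stood apart: 29748 of its rows held a count, and in the remaining 5 libraries 22763 to 24891 did.

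The B16 tumours carried a strong pigment programme in every library, with Pmel, Dct, Tyrp1, Gpnmb and Mlana the 5 highest of the 35 genes per kilobase in ICI. Pmel averaged 1980 CPM per kilobase in ICI, Dct 1297, Tyrp1 1277, Gpnmb 818 and Mlana 633. Tyrosinase itself was far lower per kilobase, at 80.5 CPM per kilobase in ICI and 87.3 in RT_ICI. The gap depends on the length used, 6042 bases for Tyr and 906 for Mlana. Which transcripts were present was not measured. The receptors Ednrb and Kit were near the bottom, at 2.65 and 0.596 CPM per kilobase in ICI. In RT_ICI, Mlana averaged 1065 CPM per kilobase, above Dct at 1021 and Tyrp1 at 890.

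**Figure D1:**
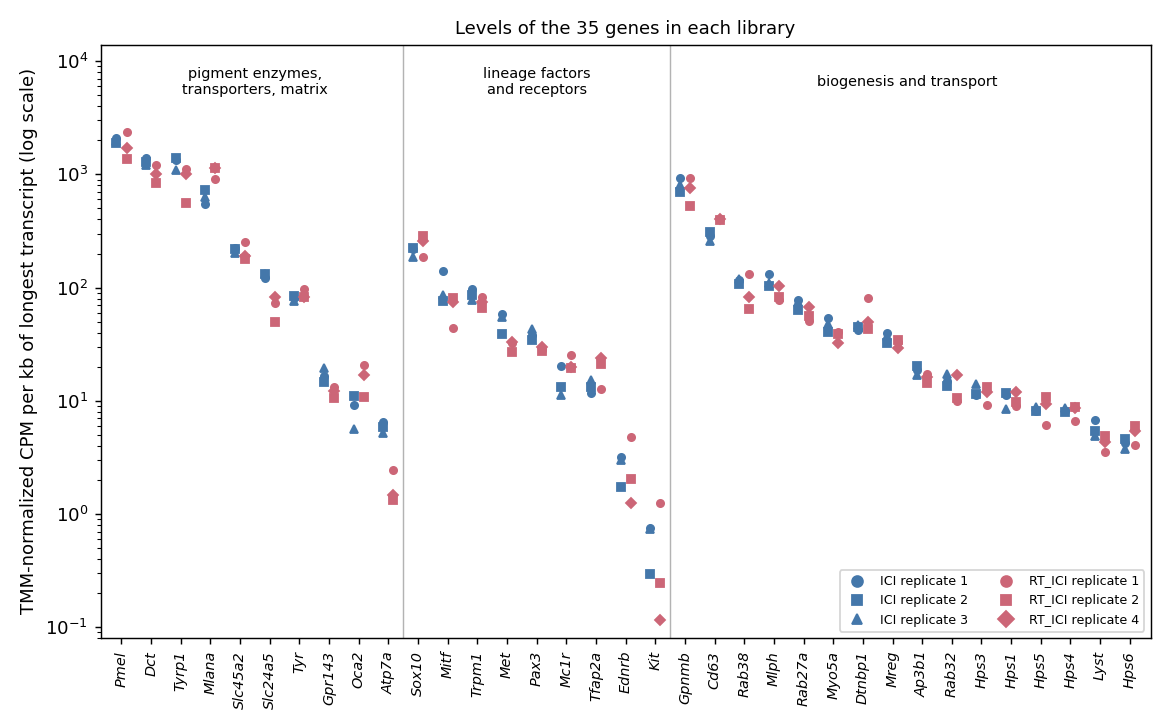
TMM-normalized CPM per kilobase of longest transcript on a log scale for the 35 genes, grouped by role, with 1 point per library (blue for ICI, red for RT_ICI). Pmel, Dct and Tyrp1 lead in ICI at means of 1980, 1297 and 1277, and Kit is lowest at 0.596.

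The 35 genes together took 2.58%, 2.27% and 2.34% of all counts in ICI replicates 1, 2 and 3 and 1.94%, 1.58% and 1.88% in RT_ICI replicates 1, 2 and 4. The means were 2.40% ± 0.160 and 1.80% ± 0.193 (SD, n = 3 each), and every RT_ICI library lay below every ICI library. With mitochondrially encoded genes left out of the total the means were 2.51% ± 0.161 and 2.07% ± 0.237. Tyrp1, Dct, Pmel and Gpnmb made up 68.5%, 68.4% and 68.1% of this share in ICI and 69.3%, 57.1% and 63.6% in RT_ICI. A share also depends on the other RNAs in the total, and without the mitochondrially encoded genes the means lay closer together. In bulk tumours, fewer melanoma cells, less of these RNAs per cell and more of other RNAs cannot be told apart.

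Between RT_ICI and ICI, 1 of the 35 genes was higher, Mlana, and 3 were lower, Atp7a, Slc24a5 and Met, by edgeR's quasi-likelihood test at a Benjamini-Hochberg adjusted p under 0.05. The other 31 did not pass. Log2 values given below are fold changes of RT_ICI over ICI, with their standard error (SE). These counts are 2.86% and 8.57% of the 35 genes, and of all genes tested 4.46% were called in the first direction and 4.72% in the other. Before adjustment, 4 of the 35 had a p under 0.05 and a higher level in RT_ICI and 6 a lower one (11.4% and 17.1%), against 15.7% and 15.8% of all genes. The groups did not overlap for 2 genes higher in RT_ICI and 8 lower (5.71% and 22.9%), against 17.8% and 19.4% of all genes. These counts are small and the list as such was not tested, so no difference from the other genes is read from them.

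The fold changes of the 35 genes had a median of -0.15 on the log2 scale, against 0.01 for all genes tested, with 24 below 0 and 11 above. The median size of a fold change, taken without its sign, was 0.30 for the 35 genes and 0.39 for all genes. Upper-quartile scaling gave 21 below 0 and 14 above, with Hps1, Hps4 and Slc45a2 changing sign, as the median of all genes moved from 0.01 to 0.10. Under that scaling 1046 genes of the whole table were called higher and 497 lower, in place of 754 and 799.

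**Figure D2:**
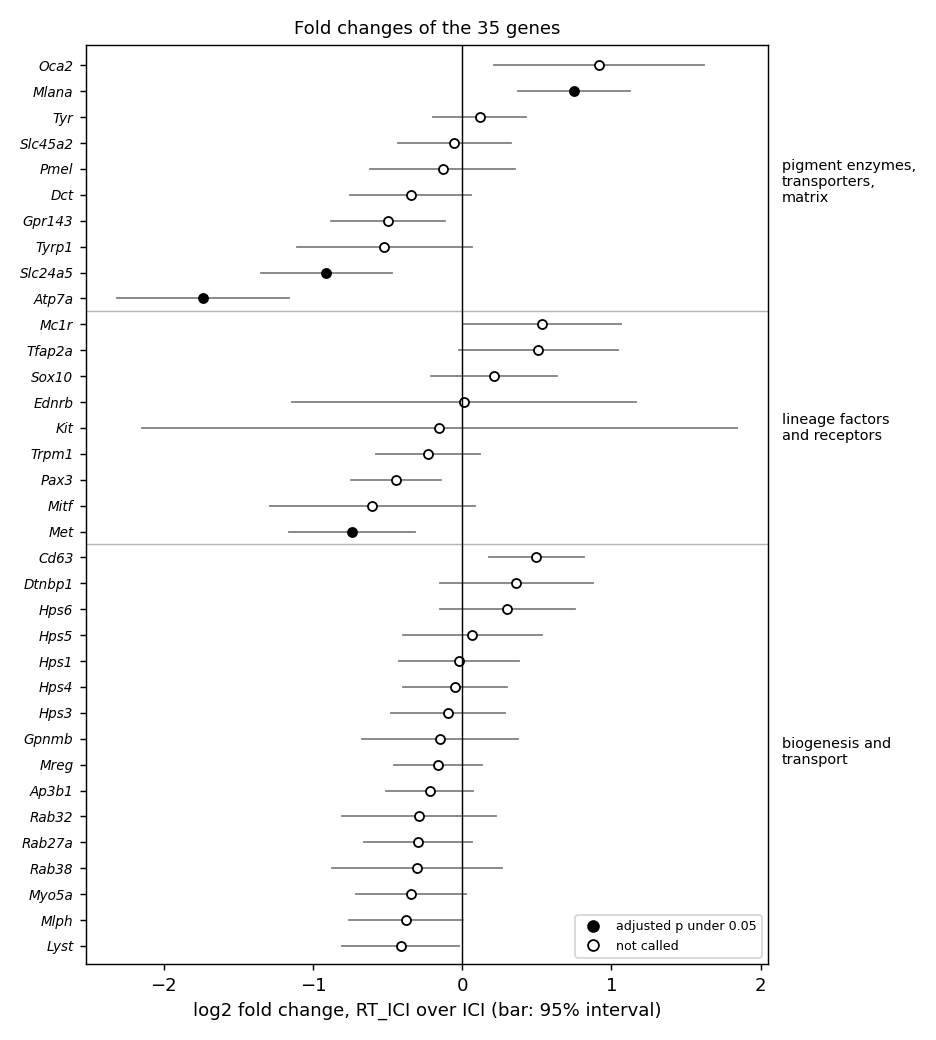
Log2 fold changes of the 35 genes, RT_ICI over ICI, with 95% intervals and grouped by role; filled points passed an adjusted p under 0.05 and open points did not. Atp7a at -1.74, Slc24a5 at -0.91, Met at -0.74 and Mlana at 0.75 are filled.

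The number of calls changed when a library was left out. Without RT_ICI replicate 1 the test called 2 of the 35 genes higher (Mlana and Tfap2a) and 4 lower (Atp7a, Slc24a5, Met and Rab38). All genes of the table then gave 1564 higher and 1545 lower, in place of 754 and 799. The added calls are thus not read as a result about the 35 genes. Without ICI replicate 2 the test called 2 of the 35 lower, Atp7a and Met, and none higher, and fewer of all genes than with all 6 libraries. Without any one of the other 4 libraries edgeR called none, while all genes of the table then gave 0 to 81 higher and 0 to 16 lower. The unadjusted p of Atp7a, Slc24a5, Mlana and Met stayed at or below 0.0171 in all of these fits. The log2 values ranged from -2.06 to -1.56 for Atp7a, -1.06 to -0.72 for Slc24a5, 0.65 to 0.85 for Mlana and -0.91 to -0.64 for Met.

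Among the pigment enzymes, transporters and matrix genes, Mlana rose, Atp7a and Slc24a5 fell and the other 7 did not pass. Atp7a, on chromosome X (106027276 to 106124926, plus strand, GRCm38), encodes the copper pump that loads tyrosinase with the metal it needs. It stood at 32.0, 28.6 and 25.3 CPM in ICI replicates 1, 2 and 3 and at 12.0, 6.54 and 7.23 CPM in RT_ICI replicates 1, 2 and 4. All RT_ICI libraries lay far below all ICI libraries, with replicate 1 the highest of the RT_ICI group. The means of 28.6 ± 3.34 and 8.60 ± 2.99 CPM gave a level 3.33-fold lower in RT_ICI (log2 -1.74, SE 0.25, adjusted p = 0.0252). The 95% interval of the ratio ran from 0.201 to 0.447. Leaving out a library at a time gave adjusted p from 0.0111 to 0.137.

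Slc24a5, on chromosome 2 (125068124 to 125088677, plus strand), encodes a potassium-dependent sodium and calcium exchanger needed for full pigmentation. Its levels were 237, 259 and 256 CPM in ICI and 142, 97.0 and 160 CPM in RT_ICI. The ICI libraries were close to each other and the RT_ICI libraries were lower and wider, without overlap. The means were 250 ± 11.9 and 133 ± 32.5 CPM, 1.88-fold lower in RT_ICI (log2 -0.91, SE 0.19, adjusted p = 0.0350). Exons of Myef2 on the opposite strand cover 39.5% of the exonic length of Slc24a5, and the sources used here do not give the strand setting of the counting, so reads of the 2 genes cannot be told apart there. Myef2 itself stood at 102, 117 and 135 CPM in ICI and 81.6, 96.0 and 104 CPM in RT_ICI (log2 -0.34, adjusted p = 0.171).

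Mlana, on chromosome 19 (29697824 to 29708634, plus strand), encodes a small membrane protein of early melanosomes, known as MART-1, that is a T cell antigen in human melanoma. It measured 496, 653 and 571 CPM in ICI and 832, 1037 and 1026 CPM in RT_ICI. Every RT_ICI library was above every ICI library, with RT_ICI replicate 1 the lowest of its group. The means of 574 ± 78.5 and 965 ± 115 CPM were 1.68-fold apart (log2 0.75, SE 0.16, adjusted p = 0.0376). With a correction for transcript length and GC content, the log2 value was 0.64 and the adjusted p 0.0524.

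**Figure D3:**
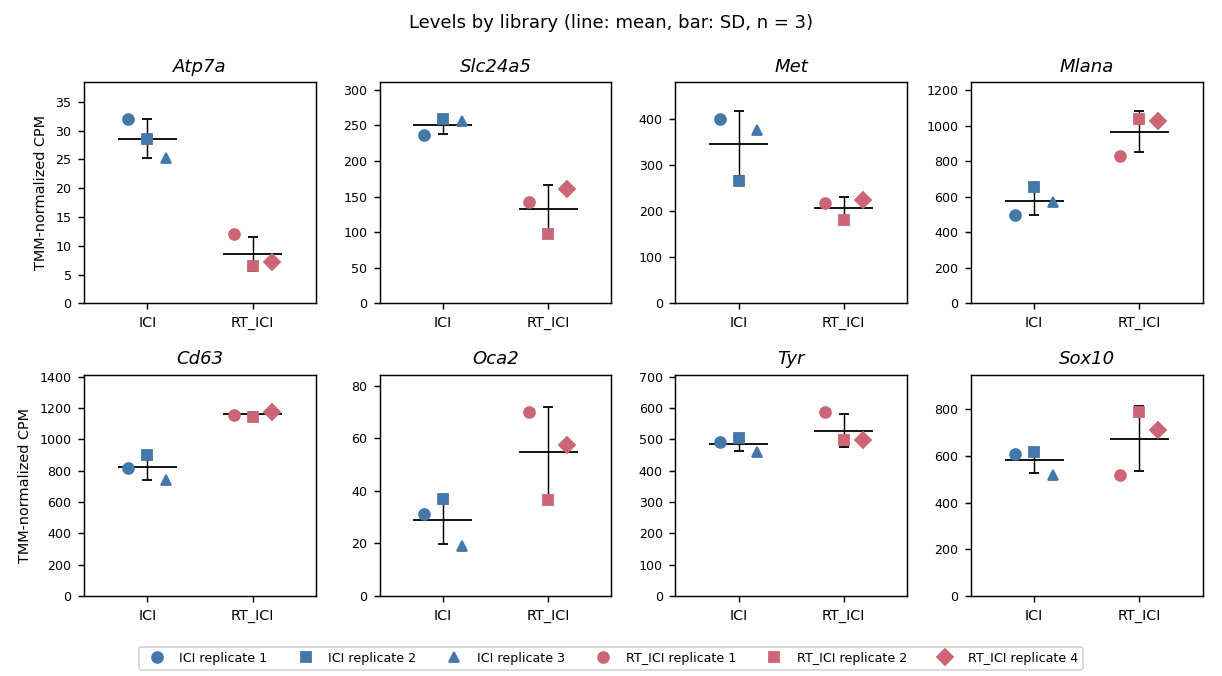
TMM-normalized CPM of 8 genes in each library, with the group mean (line) and SD (bar, n = 3). Atp7a, Slc24a5 and Met are lower and Mlana and Cd63 higher in RT_ICI without overlap, while Oca2, Tyr and Sox10 overlap between the groups.

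The enzymes of melanin synthesis did not pass the test. Tyr, the rate-limiting enzyme, stood at 493, 506 and 460 CPM in ICI and 589, 497 and 497 CPM in RT_ICI (log2 0.12, SE 0.14, adjusted p = 0.578). The 95% interval of its ratio, 0.873 to 1.35, leaves room for a modest change either way. Tyrp1, the tyrosinase-related oxidase, gave 3650, 3779 and 2994 CPM in ICI and 3008, 1531 and 2720 CPM in RT_ICI (log2 -0.52, adjusted p = 0.200). Its lowest value by far was in RT_ICI replicate 2, and the groups overlapped. Dct, dopachrome tautomerase, gave 4818, 4442 and 4195 CPM in ICI and 4212, 2919 and 3467 CPM in RT_ICI (log2 -0.34, adjusted p = 0.217).

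Pmel, which forms the fibrils on which melanin is laid down, stood at 4433, 4042 and 4178 CPM in ICI. In RT_ICI it stood at 5007, 2905 and 3647 CPM (log2 -0.13, adjusted p = 0.695). The RT_ICI libraries fell on both sides of the ICI libraries, with replicate 1 highest and replicate 2 lowest, and without RT_ICI replicate 2 the log2 value was 0.05. Oca2, a membrane protein that sets melanosome pH, had 31.1, 36.8 and 19.0 CPM in ICI and 70.1, 36.5 and 57.5 CPM in RT_ICI (log2 0.92, SE 0.30, adjusted p = 0.0891). RT_ICI replicate 2 lay within the ICI range and the other RT_ICI libraries above it, and the adjusted p was 0.0209 with DESeq2 and 0.102 with the correction for length and GC content. Slc45a2, a transporter that also acts on melanosome pH, had a log2 value of -0.05 (adjusted p = 0.853). Gpr143, a receptor in the melanosome membrane, had 26.5, 23.3 and 30.9 CPM in ICI and 21.2, 16.7 and 19.3 CPM in RT_ICI, with no overlap (log2 -0.50, adjusted p = 0.0880).

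The pigment genes did not all change in the same direction, and levels of some of them shifted against each other within a library. The ratios that follow, 5 in all and taken per kilobase, were chosen after the values were seen and carry no test. Their size depends on the transcript lengths used, which scale every library alike. Mlana to Slc24a5 was 4.52, 5.45 and 4.82 in ICI and 12.6, 23.0 and 13.8 in RT_ICI. Mlana to Pmel was 0.263, 0.380 and 0.322 in ICI and 0.391, 0.839 and 0.661 in RT_ICI. In both, RT_ICI replicate 2 was the highest library.

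The related enzymes sat lower against tyrosinase in RT_ICI. Tyrp1 to Tyr was 16.5, 16.6 and 14.5 in ICI and 11.4, 6.84 and 12.2 in RT_ICI. Dct to Tyr was 17.1, 15.3 and 15.9 in ICI and 12.5, 10.3 and 12.2 in RT_ICI. Among the lineage factors, Sox10 to Mitf was 1.57, 2.89 and 2.16 in ICI and 4.27, 3.53 and 3.41 in RT_ICI. The ratios are not corrected for length and GC content. With that correction the log2 fold changes were -0.03 for Sox10 and -0.34 for Mitf, in place of 0.21 and -0.60, so their difference was smaller. They were 0.31 for Tyr, -0.45 for Tyrp1 and -0.14 for Dct, and 0.64 for Mlana, -0.26 for Pmel and -0.86 for Slc24a5.

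**Figure D4:**
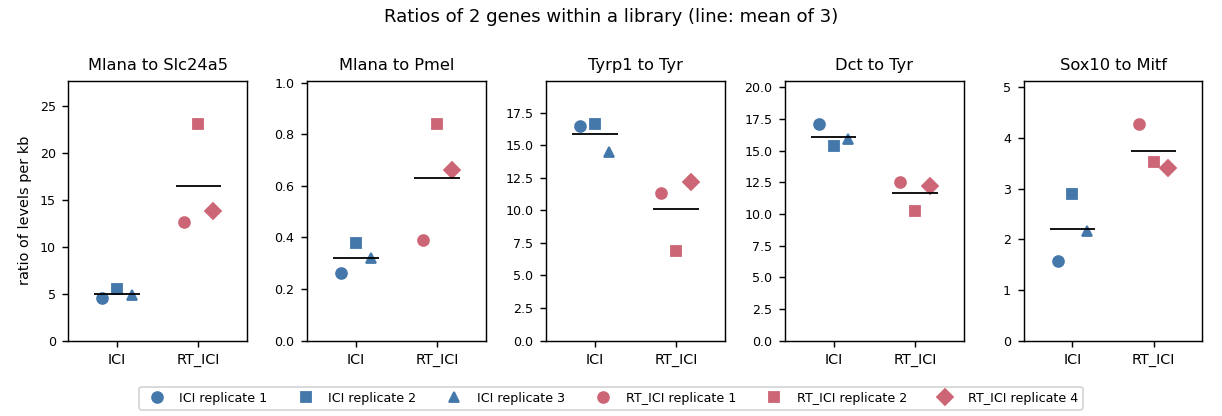
Ratios of the per kilobase levels of 2 genes within each library, with the mean of 3 libraries as a line. Mlana to Slc24a5 spans 4.52 to 5.45 in ICI and 12.6 to 23.0 in RT_ICI, and the Tyrp1 to Tyr and Dct to Tyr ratios are lower in RT_ICI.

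Among the 9 lineage factors and receptors, Met fell and none rose. At an unadjusted p under 0.05 there were 1 higher, Mc1r, and 2 lower (11.1% and 22.2%, against 15.7% and 15.8% of all genes). DESeq2 called 0 of them higher and 2 lower, where it called 1746 and 1703 of all 16924 genes. With limma-voom none of them was called, against 635 higher and 691 lower of all genes. Met, on chromosome 6 (17463800 to 17573980, plus strand), encodes the receptor for hepatocyte growth factor. It stood at 400, 266 and 376 CPM in ICI and 219, 182 and 224 CPM in RT_ICI. The groups did not overlap, though ICI replicate 2 lay close to the RT_ICI range. The means of 347 ± 71.5 and 208 ± 22.8 CPM made it 1.67-fold lower in RT_ICI (log2 -0.74, SE 0.18, adjusted p = 0.0466). With the correction for length and GC content the log2 value was -0.46 and the adjusted p 0.109, and with upper-quartile scaling the adjusted p was 0.0607. It was 0.0505 with edgeR without robust estimation and 0.0526 with limma-voom.

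Mitf, the central transcription factor of the lineage, gave 681, 375 and 422 CPM in ICI and 213, 393 and 368 CPM in RT_ICI (log2 -0.60, SE 0.30, adjusted p = 0.205). The spread came from ICI replicate 1, the highest, and RT_ICI replicate 1, the lowest; the other 4 libraries lay within 368 and 422 CPM. Sox10, the neural crest factor that acts upstream of Mitf, gave 610, 616 and 520 CPM in ICI and 519, 790 and 713 CPM in RT_ICI (log2 0.21, adjusted p = 0.452). RT_ICI replicate 1 was the lowest of the 6 libraries for both factors.

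Sox10 is also used by Schwann cells. All 7 Schwann cell markers were detected in every library, their summed level was 610 to 673 CPM in ICI and 790 to 985 CPM in RT_ICI, and 1 of 6 tested was called higher. Mbp made up most of that sum, at 555 to 630 CPM in ICI and 726 to 915 CPM in RT_ICI. Their part in the Sox10 level was not tested.

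Pax3, a partner of Sox10 at the Mitf promoter, had 149, 132 and 167 CPM in ICI and 108, 107 and 114 CPM in RT_ICI (log2 -0.44, adjusted p = 0.0671). The RT_ICI libraries lay close together below all ICI libraries. DESeq2 gave Pax3 an adjusted p of 0.0193, and the correction for length and GC content gave 0.128 (log2 -0.33). Pax3 is also used by muscle precursors. Of 6 skeletal muscle markers, 5 to 6 were detected per library, at a sum of 2.45 to 190 CPM in ICI and 16.1 to 2083 CPM in RT_ICI, and none of the 5 tested was called. That sum came from genes of mature muscle fibres. Pax7, the precursor gene among the 6, stood at 0.0288, 0 and 0 CPM in ICI and 0, 0.0225 and 0 CPM in RT_ICI, too low to test. The part of muscle cells in the Pax3 level was not tested. Tfap2a had a log2 value of 0.51 (adjusted p = 0.171), and leaving out a library at a time gave values from 0.33 to 0.74, the highest without RT_ICI replicate 1, with adjusted p from 0.0211 to 0.413. Of 6 markers of keratinocytes, which also use Tfap2a, 5 were analysed here and 2 to 4 were detected per library, at a sum of 0.230 to 1.01 CPM in ICI and 0.744 to 1.88 CPM in RT_ICI, with Krt5 at 0 in all ICI libraries and Krt14 at 0 in all RT_ICI libraries.

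Mc1r, the receptor for melanocyte-stimulating hormone, gave 74.1, 47.9 and 40.8 CPM in ICI and 93.1, 70.6 and 71.9 CPM in RT_ICI (log2 0.53, adjusted p = 0.157). ICI replicate 1 lay within the RT_ICI range and the other ICI libraries below it. An antisense gene, Gm38092, overlaps 17.9% of its exonic length. Trpm1, a cation channel gene of the lineage, had a log2 value of -0.23 (adjusted p = 0.327).

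Kit, the receptor for stem cell factor, was at a low level, with 3.97, 1.53 and 3.87 CPM in ICI and 6.53, 1.28 and 0.607 CPM in RT_ICI. These levels rest on 138, 61 and 185 counts in ICI and 184, 57 and 13 counts in RT_ICI (log2 -0.15, SE 0.84, adjusted p = 0.918). Ednrb, the endothelin receptor of early melanoblasts, gave 13.2, 7.15 and 12.3 CPM in ICI and 19.5, 8.29 and 5.09 CPM in RT_ICI (log2 0.01, SE 0.49, adjusted p = 0.988). Both were highest in RT_ICI replicate 1, and without that library their log2 values were -1.68 and -0.69.

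Kit is a mast cell gene as well, and Ednrb is expressed in vessel and glial cells. The 7 mast cell markers summed to 0.101 to 0.815 CPM in ICI and 0.0933 to 3.48 CPM in RT_ICI, with 3 to 6 and 2 to 7 of them detected and Ms4a2 at 0 in all ICI libraries. The 6 endothelial markers, all detected, summed to 63.5 to 160 CPM in ICI and 66.1 to 192 CPM in RT_ICI. Both sums were highest in RT_ICI replicate 1. Their part in the Kit and Ednrb levels was not tested.

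None of the 16 genes for building and moving melanosomes passed the edgeR test in either direction. Without adjustment, p was under 0.05 for Cd63, which was higher, and for Lyst, which was lower. That is 6.25% in each direction, against 15.7% and 15.8% of all genes. DESeq2 called 1 of the 16 higher, Cd63, and 0 lower, where it called 1746 and 1703 of all 16924 genes. With limma-voom 0 were called, against 635 higher and 691 lower of all genes. Their median was -0.16 on the log2 scale. For 1 gene higher in RT_ICI and 3 lower the groups did not overlap, against 17.8% and 19.4% of all genes.

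Rab27a, Mlph and Myo5a encode the GTPase, the linker and the myosin motor that tether melanosomes to actin. Mlph gave 589, 467 and 490 CPM in ICI and 352, 372 and 467 CPM in RT_ICI (log2 -0.38, adjusted p = 0.161). Myo5a gave 630, 474 and 554 CPM in ICI and 471, 456 and 379 CPM in RT_ICI (log2 -0.34, adjusted p = 0.183). Rab27a gave 246, 199 and 238 CPM in ICI and 162, 178 and 215 CPM in RT_ICI (log2 -0.30, adjusted p = 0.228). All 3 log2 values were below 0, and Mlph and Myo5a did not overlap between groups, by narrow margins between ICI replicate 2 and an RT_ICI library. Mreg, melanoregulin, had a log2 value of -0.16 (adjusted p = 0.413).

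Rab32 and Rab38 are GTPases that route enzymes to the melanosome. Rab38 gave 184, 169 and 189 CPM in ICI and 209, 101 and 130 CPM in RT_ICI (log2 -0.30, adjusted p = 0.425). RT_ICI replicate 1 was its highest library and the other RT_ICI libraries its lowest; without replicate 1 the log2 value was -0.65 (adjusted p = 0.0299), and without RT_ICI replicate 2 it was -0.08 (adjusted p = 0.842). Rab32 had a log2 value of -0.29 (adjusted p = 0.403).

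The Hermansky-Pudlak genes are named for an inherited albinism. Hps1 and Hps4 encode BLOC-3, which activates Rab32 and Rab38, and Hps3, Hps5 and Hps6 encode BLOC-2. Their log2 values were -0.02 for Hps1, -0.05 for Hps4, -0.09 for Hps3, 0.07 for Hps5 and 0.30 for Hps6. The adjusted p-values ran from 0.317 for Hps6 to 0.940 for Hps1. Ap3b1, of the AP-3 coat, had a log2 value of -0.22 (adjusted p = 0.266).

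Dtnbp1, the dysbindin subunit of BLOC-1, gave 76.0, 81.7 and 84.9 CPM in ICI and 144, 78.0 and 89.3 CPM in RT_ICI (log2 0.36, adjusted p = 0.294). The high value was that of RT_ICI replicate 1 alone, and without it the log2 value was 0.05. Lyst, the lysosomal trafficking regulator, gave 88.6, 71.0 and 64.0 CPM in ICI and 46.7, 63.8 and 57.4 CPM in RT_ICI (log2 -0.41, adjusted p = 0.140). Its groups were separated by a margin of 64.0 against 63.8 CPM. Leukocytes also use Rab27a and Lyst, and all 6 T and NK cell markers were detected, at a sum of 2.89 to 66.9 CPM in ICI and 1.15 to 28.2 CPM in RT_ICI, with none of 6 called. Their part in these levels was not tested.

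Cd63, a tetraspanin that sorts Pmel into forming melanosomes, came closest to a call. It stood at 819, 903 and 743 CPM in ICI and 1158, 1146 and 1177 CPM in RT_ICI. The RT_ICI libraries lay within a narrow band above all ICI libraries (log2 0.50, SE 0.14, adjusted p = 0.0580). The adjusted p was 0.0434 with upper-quartile scaling and 0.00175 with DESeq2, and 0.152 with the correction for length and GC content, where the log2 value was 0.31. Gpnmb, a glycoprotein related to Pmel, gave 3465, 2611 and 3003 CPM in ICI and 3459, 1948 and 2779 CPM in RT_ICI (log2 -0.15, adjusted p = 0.678). Macrophages also express Gpnmb and Cd63. All 10 macrophage markers were detected in every library, at a sum of 169 to 189 CPM in ICI and 143 to 352 CPM in RT_ICI, the highest in RT_ICI replicate 1, and none of the 10 was called. Their part in the 2 genes was not tested.

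Other genes of the same pathway, in 4 lists of 54 entries of which 51 were tested, gave 8 called higher and 3 lower, with 40 not passing. That is 15.7% and 5.88% of the tested entries, against 4.46% and 4.72% of all genes. The lists were not tested as sets. With the correction for length and GC content, Snapin and Sytl2 of these 11 calls passed and the other 9 did not. Without RT_ICI replicate 1, all but S100a1 (adjusted p = 0.0609) passed; without ICI replicate 2, Bace2 and Sytl2 passed (adjusted p = 0.0466 each); and without any of the other 4 libraries none of the 11 did.

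Of 13 other subunits and partners of BLOC-1 and AP-3, 1 was called higher and 0 lower; 1 was lower at an unadjusted p under 0.05, and DESeq2 and limma-voom each called 1 higher and 0 lower. Snapin, the BLOC-1 subunit that also binds SNARE proteins, gave 26.7, 29.2 and 24.9 CPM in ICI and 37.0, 46.4 and 47.0 CPM in RT_ICI, with no overlap (log2 0.69, adjusted p = 0.0356). Exons of the antisense gene Ilf2 cover 15.5% of its length. Rabggta, which helps attach lipid anchors to Rab proteins, had a log2 value of 0.42 (adjusted p = 0.146).

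Of 12 tested transporters, proteases and motor linkers, 2 were called higher and 2 lower; Myrip was too low to test. Atox1, the chaperone that hands copper to Atp7a, gave 55.5, 56.3 and 46.7 CPM in ICI and 83.1, 102 and 79.7 CPM in RT_ICI (log2 0.74, SE 0.14, adjusted p = 0.0326). Every RT_ICI library lay above every ICI library, so Atox1 and Atp7a differed in opposite directions. With the correction for length and GC content Atox1 had a log2 value of 0.30 (adjusted p = 0.174) and Atp7a one of -1.49 (adjusted p = 0.0399). The copper importer Slc31a1 had a log2 value of -0.15 (adjusted p = 0.421).

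Sytl2, an effector of Rab27a, gave 68.0, 51.5 and 66.3 CPM in ICI and 29.0, 31.3 and 36.8 CPM in RT_ICI (log2 -0.94, SE 0.16, adjusted p = 0.0267). Bace2, the protease that trims Pmel into its fibril-forming part, gave 327, 253 and 317 CPM in ICI and 192, 148 and 164 CPM in RT_ICI (log2 -0.83, SE 0.16, adjusted p = 0.0326). Both were lower in all RT_ICI libraries than in any ICI library. Tpcn2, a cation channel of melanosomes and lysosomes, averaged 9.94 ± 1.12 CPM in ICI and 18.8 ± 3.07 CPM in RT_ICI (n = 3 each, log2 0.92, adjusted p = 0.0346). Mcoln3, another channel of these organelles, averaged 14.5 ± 5.11 CPM in ICI and 7.28 ± 1.85 CPM in RT_ICI (n = 3 each, adjusted p = 0.0775). The cystine exchanger Slc7a11 had a log2 value of -0.96 (adjusted p = 0.397).

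Of 14 tested lineage regulators and ligands, 1 was called higher and 1 lower, and Edn3 and Asip were not analysed here. Creb1, the factor through which cyclic AMP signals reach the Mitf promoter, averaged 59.2 ± 2.78 CPM in ICI and 33.6 ± 7.05 CPM in RT_ICI (n = 3 each, log2 -0.82, adjusted p = 0.0346). Tfeb, a relative of Mitf that drives lysosomal genes, averaged 42.9 ± 1.84 and 57.4 ± 0.896 CPM (n = 3 each, log2 0.42, adjusted p = 0.0499). With the correction for length and GC content the adjusted p was 0.0937 for Creb1 and 0.436 for Tfeb. The ligand gene Kitl had a log2 value of -1.13 (SE 0.64, adjusted p = 0.258), and Pomc, which encodes the precursor of melanocyte-stimulating hormone, had one of 0.94 (adjusted p = 0.0675).

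Of 12 other genes known as MITF targets, 4 were called higher and 0 lower (33.3% and 0%, against 4.46% and 4.72% of all genes). At an unadjusted p under 0.05, 5 were higher and none was lower, against 15.7% and 15.8% of all genes. DESeq2 called 5 of the 12 higher and 0 lower, where it called 1746 and 1703 of all 16924 genes. With limma-voom 2 were called higher and 0 lower, against 635 and 691 of all genes. The median log2 value of the 12 was 0.12. Ptgds, a prostaglandin D synthase, gave 762, 738 and 636 CPM in ICI and 1479, 1203 and 1105 CPM in RT_ICI (log2 0.83, SE 0.16, adjusted p = 0.0339). Tbx2, a transcription factor of the lineage, gave 106, 90.8 and 85.6 CPM in ICI and 304, 168 and 142 CPM in RT_ICI (log2 1.12, SE 0.28, adjusted p = 0.0472). For both genes RT_ICI replicate 1 was the highest library. S100a1, a calcium-binding protein, had a log2 value of 0.91 (adjusted p = 0.0484), and Gmpr, a purine enzyme, had one of 0.60 (adjusted p = 0.0346). Exons of the antisense gene Atxn1 cover 16.1% of the exonic length of Gmpr. With the correction for length and GC content the adjusted p was 0.0694 for Ptgds, 0.0895 for Tbx2, 0.108 for S100a1 and 0.166 for Gmpr.

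**Figure D5:**
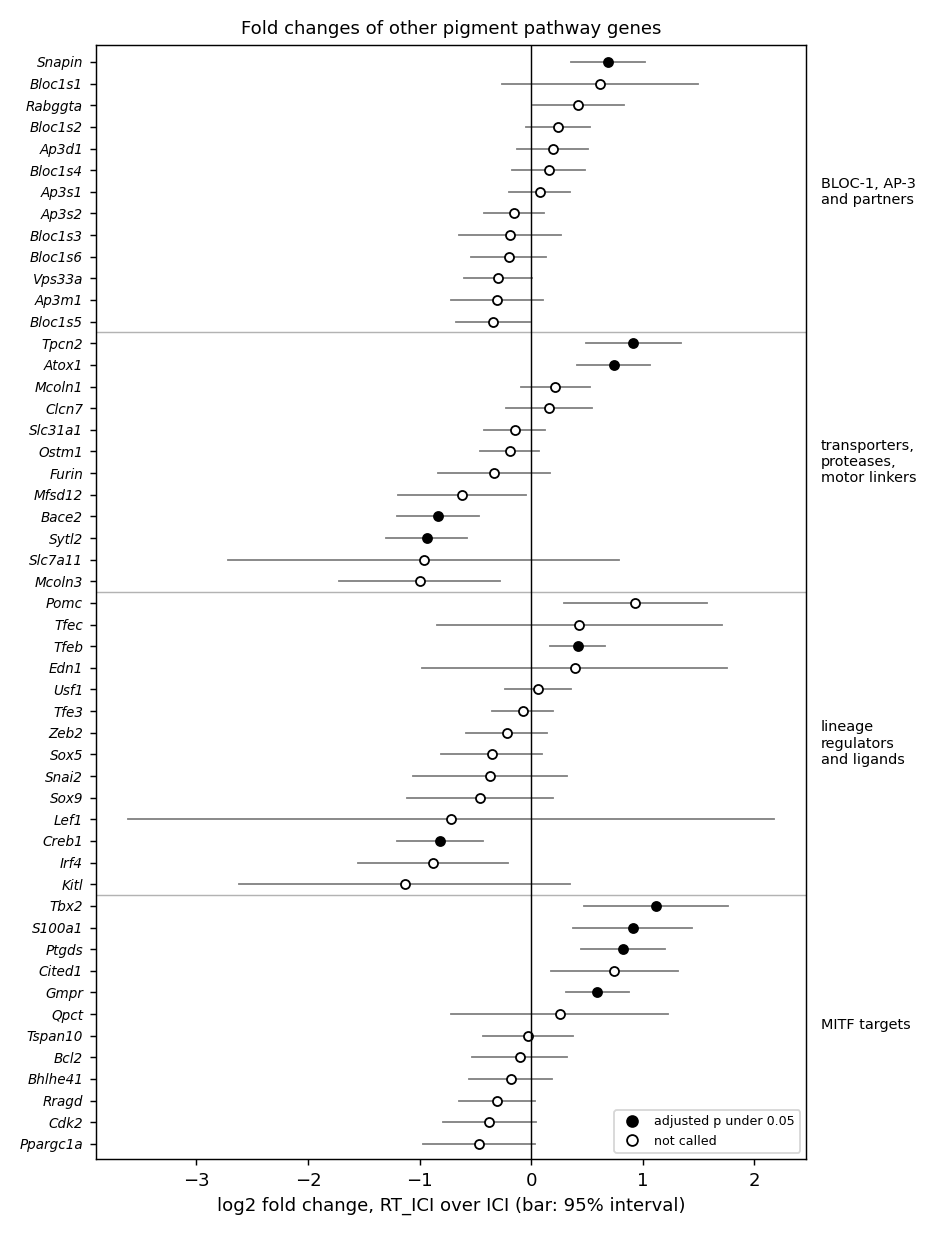
Log2 fold changes, RT_ICI over ICI, of the 51 tested genes in 4 further lists of the pigment pathway, with 95% intervals; filled points passed an adjusted p under 0.05. Atox1 at 0.74 and Sytl2 at -0.94 lie on opposite sides of 0, and the 4 filled MITF targets are all above 0.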

How the data were processed

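The deposited table holds raw counts, whole numbers in 34665 gene rows for 6 libraries. HISAT2 and the builds GRCm38 and mm10 are named per the submitters' processing notes; the sources used here do not give the counting tool, annotation, strand setting or versions. Groups came from the titles. The members, lists and tests were chosen with earlier results of these data known.

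With edgeR 4.0.16 (R 4.3.3), genes were kept by filterByExpr, scaled by TMM and compared by the robust quasi-likelihood test, with Benjamini-Hochberg adjustment over all 16924 genes tested and calls at an adjusted p under 0.05. The script was checked on simulated data. Values in every library were given for 11 fixed members, called members and the 3 largest fold changes per role; from each further list, up to 4 called genes and the 2 largest fold changes were named. Further genes were named after their values were seen. Positions, lengths, GC contents and overlaps came from GENCODE M21 (bedtools 2.31.1, blastn 2.17.0), and promoters from RefSeq. The 95% Wilson interval of a share of counts, which covers counting error only, has a half-width of at most 0.00561 percentage points. Alternatives were other scalings, filters, thresholds, tools (DESeq2 1.42.0, limma 3.58.1), a replicate block, a length and GC correction, and leaving out each library.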

Additional observations from a re-analysis of the deposited data

How the results depend on the processing

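The main test called 1 of the 35 genes higher and 3 lower. The counts were 2 and 2 with upper-quartile scaling, 1 and 4 without a filter on low counts, 2 and 3 with at least 1 CPM in 3 libraries, 3 and 4 with DESeq2, 3 and 5 at an adjusted p under 0.1, and 0 and 1 when a minimum log2 fold change of 1 was also asked for. They were 0 and 2 with the length and GC correction, and 2 and 4 with that correction and RT_ICI replicate 1 left out, an alternative chosen after seeing the data. With limma-voom they were 1 and 2, and edgeR without robust estimation left Met at an adjusted p of 0.0505. Leaving out a library at a time gave 0 to 2 higher and 0 to 4 lower, and a median from -0.28 (without RT_ICI replicate 1) to -0.11. Across the named genes and all alternatives, 511 fold changes stayed on their side of the threshold, 14 passed it newly and 135 lost the call. The 511 include genes that the main test did not call and that stayed uncalled. They therefore do not measure how well the calls held, and only called genes could give the 135. No called gene changed sign under any alternative run; the cause of the changed calls was not tested. Replicate numbers 1 and 2 occur in both groups, but the labels do not say that a number marks a shared animal or day. The deviations of same-numbered libraries from their group means correlated at 0.353 and 0.0909. Between differently numbered libraries of the 2 groups the correlations ran from -0.320 to 0.270. With the replicate block, 0 of the 35 genes were called higher and 2 lower (Mlana adjusted p = 0.108, Met 0.0907, Cd63 0.301, Pax3 0.256), and 0 and 2 with the block and the length and GC correction. Replicate 3 occurs only in ICI and replicate 4 only in RT_ICI. With the block, the group difference therefore rested on replicates 1 and 2 alone, so fewer calls there need not come from pairing.

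For all genes, 754 were called higher and 799 lower. The numbers were 1046 and 497 with upper-quartile scaling, 1121 and 1507 without a filter, 1746 and 1703 with DESeq2, 285 and 207 with the length and GC correction, 400 and 245 with the block, 568 and 353 with both, and 1379 and 1153 with the correction and RT_ICI replicate 1 left out. They were 1802 and 1833 at an adjusted p under 0.1, 431 and 156 with the minimum fold change, and 0 to 1564 and 0 to 1545 on leaving out a library.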
